A study of Mus musculus with 13 samples.

Results

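The genes described here supply a cell with glucose and turn it into lactate. They are 10 genes of the 20738 named on the array, chosen by name: the hexose transporters Slc2a1, Slc2a3 and Slc2a8, the lactate dehydrogenases Ldha and Ldhb, the lactate carriers Slc16a1 and Slc16a3, the hexokinase Hk2, and Pfkfb3 and Fbp1, which set the direction of a central step. The platform annotation assigns 14 features to them, 3 to Ldha, 2 each to Pfkfb3 and Slc16a3 and 1 to each of the others. RNA was measured on 13 one-colour mouse arrays in 7 groups. Mouse embryonic fibroblasts carrying an empty vector (MEF, 2 arrays) and tail tip fibroblasts carrying tdTomato (TTF, 2 arrays) were grown for 3 passages in 10% serum. Induced embryonic Sertoli cells (ieSC), made from TTF (TTF-ieSC, 2 arrays) or MEF (MEF-ieSC, 1 array), carried transgenes for Nr5a1, Wt1, Dmrt1, Gata4 and Sox9 and were grown for 6 months in 2% serum with doxycycline. The native groups were wild type without a transgene: whole male gonad at 14.5 dpc, which was not cultured, immature Sertoli cells from 19 dpc testis, cultured for 3 days, and mature Sertoli cells from 8-week-old testis, cultured for 7 days, both in 10% serum (2 arrays each).

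Sertoli cells nurse the germ cells of the testis. They take up glucose through facilitative transporters, carry it through glycolysis and release much of it as lactate, which later germ cells burn in preference to glucose. Hexokinase traps glucose in the cell, the product of PFKFB3 speeds glycolysis at the phosphofructokinase step, and FBP1 runs that step in reverse, towards glucose. Lactate dehydrogenase is a tetramer of LDHA and LDHB subunits: LDHA favours making lactate from pyruvate and LDHB favours the opposite direction. Lactate leaves or enters the cell through monocarboxylate carriers, of which MCT4 (Slc16a3) is the main exporter of glycolytic cells and MCT1 (Slc16a1) works both ways.

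The values are log2 signals with the same distribution on every array, with a median of 7.488 and a maximum of 18.872. Detection flags were not used here, so a value near or under the median is dim by rank and a difference from it depends on the background. The root mean square gap between the replicates of a group was 0.167 to 0.310 over the 16658 genes tested. All 10 genes passed the filter on low values (2 arrays or more over the array median). Fbp1 passed only through the gonad and mature Sertoli arrays, and Slc16a1, at 7.57 to 8.51, stayed close to the median everywhere. Among 15 Sertoli cell markers on each array, 14 or 15 were above the median in the 6 native arrays, 12 in the induced cells, 11 in MEF and 8 in TTF. The list includes Nr5a1, Wt1, Dmrt1, Gata4 and Sox9, the transgenes of the induced cells. Whether their features read the transgenes was not tested, so the count in the induced cells is no measure of Sertoli cell identity. Markers of other testis cells were present in the native cultures. Germ cell markers had a mean of 9.91 to 10.26 in the immature and mature cultures and 11.05 to 11.11 in the gonad, against 6.54 to 7.15 on the other 7 arrays. Smooth muscle markers, which peritubular cells carry, had a mean of 15.73 to 16.38 in these cultures against 12.38 to 12.46 in the gonad, but also of 15.99 and 16.01 in MEF and 13.96 and 13.92 in TTF. In these bulk samples, fewer cells of a type and less RNA per cell cannot be told apart.

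**Figure D1:**
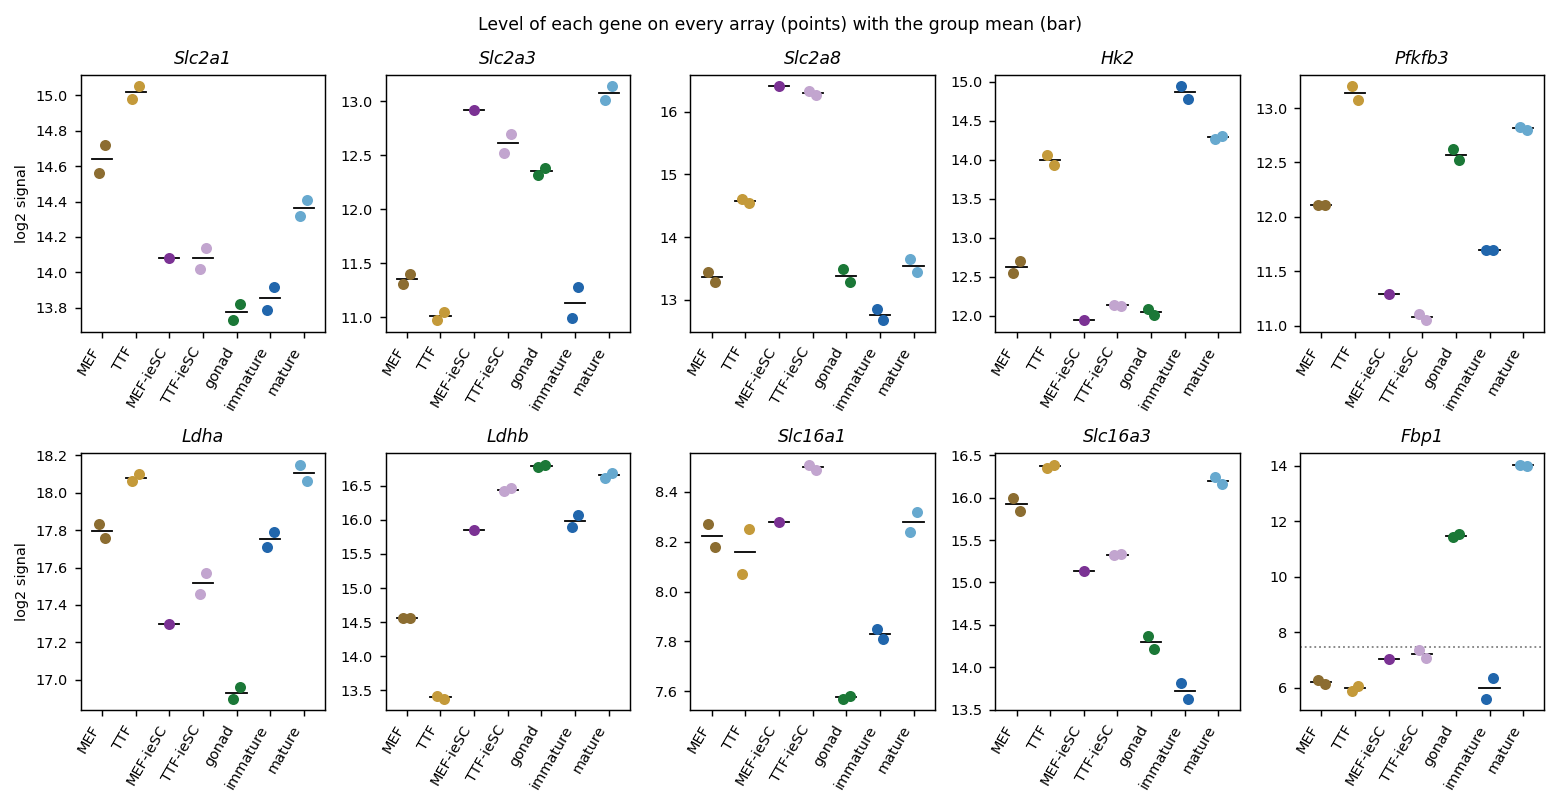
Log2 signal (y axis, 1 panel and 1 scale per gene) of the brightest feature of each gene on every array (points) in the 7 groups (x axis), with bars at the group means; the dotted line in the Fbp1 panel is the array median of 7.488. Slc2a8 is highest in the induced cells, Ldhb is lowest in the fibroblasts, Hk2 is highest in the Sertoli cell cultures and Fbp1 is above the median only in the gonad and in mature Sertoli cells.

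Both inductions moved these genes the same way and split them into a set that rose and a set that fell. Slc2a3, Slc2a8, Ldhb and Fbp1 rose and Slc2a1, Hk2, Pfkfb3, Ldha and Slc16a3 fell, from TTF and from MEF alike. The rise of Fbp1 was between dim signals under the array median. In TTF-ieSC against TTF all 10 genes were called (limma, adjusted p under 0.05), 5 higher and 5 lower. Of all genes tested 74.7% were called there, 39.5% higher and 35.2% lower. In MEF-ieSC against MEF 9 were called, 4 higher and 5 lower, against 67.9% over the array, with 34.3% called higher and 33.6% called lower. The 9 genes called in both went the same way in each. Over all genes tested 56.7% were called in both and 49.8% were called in both in the same direction, which is 87.8% of those called in both, so these counts do not set the 10 genes apart from the rest of the array. The median difference of the 10 genes was -0.12 from TTF and -0.22 from MEF, against 0.06 and 0.01 over all genes tested. The inductions share no array. Serum, time in culture and doxycycline differ between fibroblasts and induced cells along with the factors, and their parts cannot be told apart.

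Promoter sequence is shown for 5 of these genes because Ldha, Slc2a1 and Hk2 fell in both inductions and Ldhb and Slc2a8 rose. Each line gives the 150 bases before the transcription start, 5′ to 3′ on the gene's strand, from RefSeq (GRCm38.p6), and for Ldha the first of its 2 listed starts. Capitals mark ACGTG on either strand, 1 of the 2 forms of the core bound by hypoxia-inducible factors. The other form, GCGTG, was counted but is not capitalised. Inside the palindrome CACGTG, the E-box of MYC and USF proteins, both strands match and were counted as 1 stretch.
Ldha (chr7:46845654-46845803, plus strand): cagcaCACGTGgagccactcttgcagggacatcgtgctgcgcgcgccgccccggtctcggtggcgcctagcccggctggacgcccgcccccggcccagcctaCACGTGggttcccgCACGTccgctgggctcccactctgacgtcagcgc
Slc2a1 (chr4:119108595-119108744, plus strand): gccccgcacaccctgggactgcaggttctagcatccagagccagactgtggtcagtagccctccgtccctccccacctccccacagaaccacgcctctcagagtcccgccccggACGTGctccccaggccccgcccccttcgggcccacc
Hk2 (chr6:82774455-82774604, minus strand): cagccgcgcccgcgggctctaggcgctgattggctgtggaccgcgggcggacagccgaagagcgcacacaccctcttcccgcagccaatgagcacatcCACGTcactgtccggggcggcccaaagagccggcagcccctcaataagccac
Ldhb (chr6:142507958-142508107, minus strand): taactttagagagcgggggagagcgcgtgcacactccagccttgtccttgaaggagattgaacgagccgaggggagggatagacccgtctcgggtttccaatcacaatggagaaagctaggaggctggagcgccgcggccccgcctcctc
Slc2a8 (chr2:32982084-32982233, minus strand): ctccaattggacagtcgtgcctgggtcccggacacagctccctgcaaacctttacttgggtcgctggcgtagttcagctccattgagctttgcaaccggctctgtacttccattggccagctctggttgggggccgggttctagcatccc
The Ldha window holds 3 stretches, which start 145, 48 and 34 bases before the start site, and Slc2a1 and Hk2 hold 1 each, 36 and 52 bases before it. The Ldhb and Slc2a8 windows hold no ACGTG. The Ldhb and Slc2a1 windows each hold 1 stretch of GCGTG, and the other 3 hold none of that form. Over the 250 bases before the start, the table lists 11 windows for 9 of the genes. Of these 7 held ACGTG, 6 held GCGTG and 10 held either, and the second Ldha window held no ACGTG. Among the genes not printed, the Slc16a3 window held 2 stretches of ACGTG, each Pfkfb3 window 1, the Slc16a1 window 1 and the Fbp1 window 0. Slc16a3 and Pfkfb3 fell and Fbp1 rose in both inductions, while Slc16a1 rose from TTF and was not called from MEF. The printed genes were picked by direction, and a link between motif and direction was not tested. Of all 32851 such windows, 16.6% held ACGTG, 28.2% held GCGTG, 38.6% held either and 6.0% held CACGTG. Slc2a3 has no entry. A match in the letters is a description and says nothing of whether a factor was bound.

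Among the glucose transporters, Slc2a8 had its highest level in the induced cells and Slc2a1 in the fibroblasts. Slc2a8 encodes GLUT8, a hexose transporter held mostly on membranes inside the cell. It read 16.33 and 16.27 in TTF-ieSC, 16.41 in MEF-ieSC, 14.61 and 14.55 in TTF, 13.44 and 13.29 in MEF, 13.49 and 13.28 in gonad, 12.85 and 12.67 in immature Sertoli cells and 13.65 and 13.44 in mature Sertoli cells. The induced arrays stood above all others, and MEF, gonad and mature Sertoli cells overlapped. Slc2a8 rose by 1.72 ± 0.10 (log2 difference ± SE) from TTF (adjusted p = 6.80e-07) and by 3.05 ± 0.13 from MEF (adjusted p = 9.31e-08), 3.30-fold and 8.27-fold. Against immature Sertoli cells it was higher by 3.54 ± 0.10 in TTF-ieSC and by 3.65 ± 0.13 in MEF-ieSC (adjusted p = 7.86e-09 and 3.36e-08; these 2 comparisons share the immature arrays).

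Slc2a3 encodes GLUT3, a transporter of high affinity for glucose. It read 12.52 and 12.70 in TTF-ieSC and 12.92 in MEF-ieSC, against 10.97 and 11.05 in TTF and 11.31 and 11.40 in MEF. In the native groups it read 12.32 and 12.38 in gonad, 10.99 and 11.28 in immature and 13.01 and 13.14 in mature Sertoli cells. The induced cells therefore lay between gonad and mature Sertoli cells, and the fibroblasts lay with immature Sertoli cells, whose arrays overlapped those of TTF. The rise was 1.60 ± 0.11 from TTF and 1.56 ± 0.13 from MEF (adjusted p = 1.18e-06 and 8.07e-06).

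Slc2a1, the widely expressed basal transporter GLUT1, went the other way by smaller amounts. It read 14.98 and 15.05 in TTF, 14.56 and 14.72 in MEF, 14.02 and 14.14 in TTF-ieSC and 14.08 in MEF-ieSC. The fall was -0.94 ± 0.08 from TTF (adjusted p = 7.78e-06) and -0.56 ± 0.10 from MEF (adjusted p = 0.00105), to a level near that of gonad (13.73 and 13.82) and immature Sertoli cells (13.79 and 13.92). TTF-ieSC remained above immature Sertoli cells by 0.23 ± 0.08 (adjusted p = 0.0309), a call lost without TTF-ieSC replicate 2 (0.17, adjusted p = 0.166) and without immature replicate 1 (0.16, adjusted p = 0.159). In MEF-ieSC the same difference, 0.23 ± 0.10, did not pass (adjusted p = 0.0715).

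At the steps that commit glucose to glycolysis, Hk2 and Pfkfb3 fell in the induced cells, and Hk2 ended far under the native cultures. Hk2, the inducible hexokinase that docks on mitochondria, read 14.06 and 13.93 in TTF and 12.55 and 12.70 in MEF. It read 12.14 and 12.12 in TTF-ieSC and 11.94 in MEF-ieSC, next to the gonad at 12.09 and 12.01. Immature Sertoli cells (14.94 and 14.78) and mature Sertoli cells (14.27 and 14.30) had the highest levels. Hk2 fell by 1.86 ± 0.08 from TTF (adjusted p = 6.73e-08) and by 0.69 ± 0.10 from MEF (adjusted p = 0.000289). It lay 2.73 ± 0.08 lower in TTF-ieSC than in immature Sertoli cells, or 0.151 times their signal (adjusted p = 7.79e-09), and -2.92 ± 0.10 from them in MEF-ieSC (adjusted p = 2.63e-08). The cultured immature cells exceeded the uncultured gonad by 2.81 ± 0.08 (adjusted p = 1.22e-08). Age and the mix of cells differ between these groups along with culture, and their parts cannot be told apart.

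Pfkfb3, which makes the activator fructose 2,6-bisphosphate, read 13.20 and 13.07 in TTF and 12.11 on both MEF arrays. The induced cells had the lowest levels of all groups, 11.11 and 11.05 in TTF-ieSC and 11.29 in MEF-ieSC. The next were immature Sertoli cells at 11.70 on both arrays, and then gonad (12.62 and 12.52) and mature Sertoli cells (12.83 and 12.80) followed on the other side of MEF. The fall was -2.05 ± 0.06 from TTF and -0.81 ± 0.07 from MEF (adjusted p = 5.62e-09 and 1.53e-05). The other Pfkfb3 feature, annotated to another transcript, was near the array median (7.51 to 8.30) and changed by -0.59 ± 0.09 from TTF (adjusted p = 0.000247) and -0.05 ± 0.10 from MEF (adjusted p = 0.689).

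Fbp1, a gluconeogenic enzyme gene, was well above the median in only 2 groups. It read 14.05 and 14.01 in mature Sertoli cells and 11.44 and 11.54 in gonad. In immature Sertoli cells it read 5.61 and 6.34, in TTF 5.90 and 6.07, in MEF 6.27 and 6.12, in TTF-ieSC 7.36 and 7.09 and in MEF-ieSC 7.04. All arrays outside gonad and mature Sertoli cells were under the array median, so the rise of 1.25 ± 0.21 in TTF-ieSC (adjusted p = 0.000561) and of 0.84 ± 0.25 in MEF-ieSC (adjusted p = 0.0166) is between dim signals. Leaving out MEF replicate 2 ended the second call (0.77, adjusted p = 0.0603). Fbp1 entered the fit through the gonad and mature arrays, where it is high, so its differences from them are given as these levels, without p-values. The fit did call them, and the counts below that include Fbp1 for this reason say so. The size of these differences depends on the background in the dim groups.

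Markers of other testis cells differed between these groups too, and their part in the Fbp1 difference was not tested. The list of 14 germ cell markers had a mean of 10.11 and 10.26 in mature and 9.97 and 9.91 in immature Sertoli arrays, with 11 and 10 markers above the median. These near means hide members that went both ways, 4 of the 14 higher in mature cells and 5 lower. Higher were markers of spermatids and late spermatocytes: Pgk2, the phosphoglycerate kinase of meiotic and later germ cells, had a mean of 11.78 in mature and 6.50 in immature Sertoli cells, the protamine Prm1 12.06 and 7.95, and Acrv1 9.98 and 6.25. Markers of earlier germ cells were lower: Stra8 had a mean of 12.64 in mature and 16.60 in immature cells, Dazl 10.18 and 13.02, Pou5f1 6.61 and 8.93, and Ddx4 11.17 and 12.14. The Leydig cell list was at 12.07 to 12.17 in both cultures and at 15.74 and 15.76 in gonad. It too held Star at 13.46 in mature and 11.91 in immature cells but Hsd3b1 at 10.49 and 12.17. Over the 7 group means the genes most like Fbp1 were Tex21 (Pearson correlation 0.986) and Tesmin (0.984), the latter known from germ cells of the mouse testis. Both were picked for the highest correlations among the genes tested, so the height of these values is no evidence for a shared cell type.

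**Figure D2:**
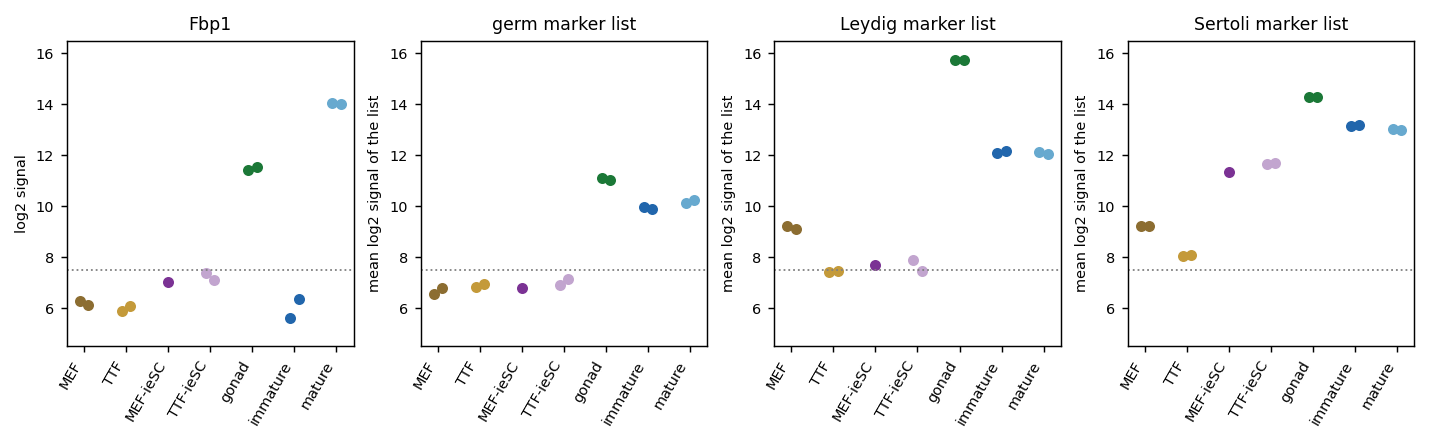
Log2 signal of Fbp1 and mean log2 signal of the germ, Leydig and Sertoli cell marker lists (y axes, same scale) on every array (points) in the 7 groups (x axis), with the array median dotted. Fbp1 is near 14 in mature Sertoli cells and under 6.5 in immature ones, and the means of the 3 lists are close in those groups. Single germ and Leydig cell markers differ there in both directions, so the list means do not show that the mix of cells was alike.

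The lactate dehydrogenase genes moved in opposite directions in both inductions. Ldhb read 13.42 and 13.38 in TTF, 14.56 on both MEF arrays, 16.42 and 16.46 in TTF-ieSC and 15.85 in MEF-ieSC. Native groups were at 16.78 and 16.81 (gonad), 15.89 and 16.07 (immature) and 16.62 and 16.68 (mature). The fibroblasts lay below every other array. Ldhb rose by 3.04 ± 0.06 from TTF (8.24-fold, adjusted p = 7.00e-10) and by 1.29 ± 0.08 from MEF (2.44-fold, adjusted p = 1.12e-06). TTF-ieSC exceeded immature Sertoli cells by 0.45 ± 0.06 (adjusted p = 0.000217), while the difference of MEF-ieSC from them did not pass (-0.13, 95% interval -0.32 to 0.05, adjusted p = 0.159). Without immature replicate 1 that difference passed (-0.22, adjusted p = 0.0175).

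Ldha is read by 3 features, and its size of change depends on which is taken. The brightest feature, used in the fit of genes, spans 16.90 to 18.15, close to the array maximum of 18.872. The features of middle and lowest brightness span 14.00 to 16.75 and 10.98 to 13.95. From TTF to TTF-ieSC the brightest changed by -0.57 ± 0.06 (adjusted p = 4.05e-05 in the fit of genes), the middle by -1.86 ± 0.06 and the dimmest by -1.87 ± 0.05 (adjusted p = 1.28e-08 and 5.05e-09 in a fit of all features). From MEF to MEF-ieSC the changes were -0.50 ± 0.08, -1.31 ± 0.07 and -1.01 ± 0.06 (adjusted p = 0.000446 for the brightest, 7.36e-07 and 1.56e-06 for the others). All 3 features fell in both inductions, and the brightest fell least in each. What part of the transcript each feature reads is not known here, nor whether it also reads the processed pseudogenes of Ldha.

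**Figure D3:**
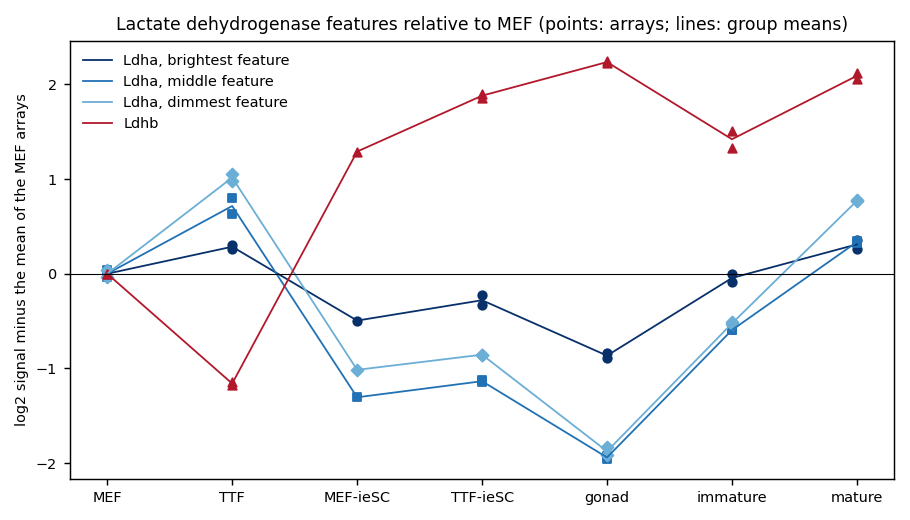
Log2 signal of the 3 Ldha features and the Ldhb feature minus the mean of the MEF arrays (y axis) in the 7 groups (x axis), with points for arrays and lines through group means. Ldhb lies above MEF by 1.29 or more on average in all groups but TTF, while every Ldha feature is lower in the induced cells and in the gonad than in the fibroblasts.

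Ldha was lowest in the gonad on all 3 features. The immature Sertoli cultures exceeded the gonad by 0.82 ± 0.06 on the brightest feature (adjusted p = 5.14e-06) and by 1.34 and 1.35 on the others, while Ldhb was lower in them by -0.81 ± 0.06 (adjusted p = 6.44e-06). Between mature Sertoli cells and TTF the brightest Ldha feature did not separate the groups (0.03, 95% interval -0.12 to 0.17, adjusted p = 0.720), but the others were lower in mature cells (-0.38, adjusted p = 0.000442, and -0.24, adjusted p = 0.00281). Immature Sertoli cells and MEF showed the same split, with -0.05 (adjusted p = 0.497) on the brightest feature and -0.60 and -0.52 on the others (adjusted p = 3.24e-05 and 3.06e-05).

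Of the lactate carriers, Slc16a3 fell and Slc16a1 stayed dim. Slc16a3 read 16.35 and 16.39 in TTF, 16.00 and 15.84 in MEF, 15.32 and 15.33 in TTF-ieSC and 15.14 in MEF-ieSC. It read 16.24 and 16.16 in mature Sertoli cells, 14.37 and 14.22 in gonad and 13.81 and 13.63 in immature Sertoli cells, the lowest of all. No 2 groups overlapped. The fall in the induced cells was -1.04 ± 0.08 from TTF and -0.78 ± 0.10 from MEF (adjusted p = 4.78e-06 and 0.000173), and it left them above immature Sertoli cells by 1.61 ± 0.08 and 1.43 ± 0.10 (adjusted p = 2.93e-07 and 3.24e-06). The other Slc16a3 feature gave -1.09 ± 0.05 and -0.84 ± 0.06 for the falls. Slc16a1 read 8.51 and 8.49 in TTF-ieSC, 8.07 and 8.25 in TTF, 8.28 in MEF-ieSC and 8.27 and 8.18 in MEF. It rose by 0.34 ± 0.07 from TTF (adjusted p = 0.00206) and did not pass from MEF (0.05, 95% interval -0.14 to 0.25, adjusted p = 0.605).

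**Figure D4:**
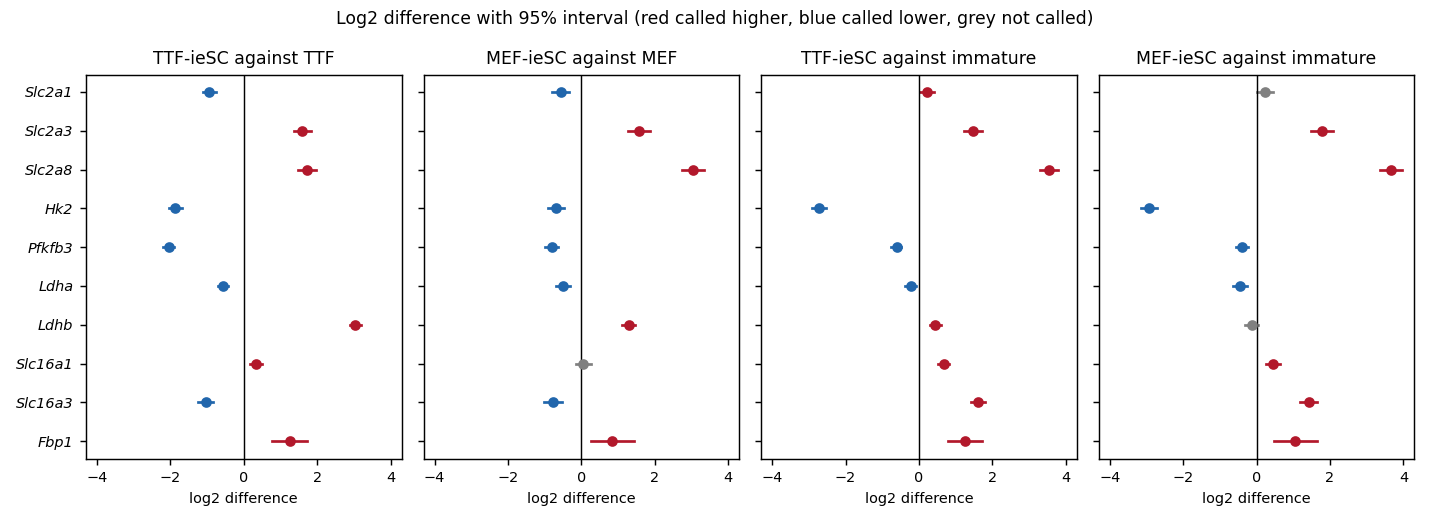
Log2 differences (x axis) with 95% intervals of the 10 genes (y axis) in the 2 inductions and in the induced cells against immature Sertoli cells. The inductions agree in direction for every gene called in both, and Slc2a8 and Hk2 differ most from immature Sertoli cells, at 3.54 and -2.73 in TTF-ieSC.

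Testing the difference between the inductions separated 5 of the 10 genes, 1 higher and 4 lower, where 54.1% of all genes tested were called, 28.9% higher and 25.2% lower. Ldhb rose by 1.75 ± 0.10 more from TTF than from MEF (adjusted p = 2.70e-06), and Slc2a8 by 1.33 less (-1.33 ± 0.17, adjusted p = 0.000228). Pfkfb3 (-1.24 ± 0.10, adjusted p = 1.34e-05), Hk2 (-1.18 ± 0.13, adjusted p = 9.94e-05) and Slc2a1 (-0.37 ± 0.13, adjusted p = 0.0376) fell further from TTF. The Slc2a1 call was lost under several settings, among them without MEF replicate 1 (-0.29, adjusted p = 0.0934). Ldha did not pass on its brightest feature (-0.07, adjusted p = 0.599) but did on the others (-0.55, adjusted p = 0.00162, and -0.86, adjusted p = 5.52e-05). Slc16a3 likewise did not pass on its brightest feature (-0.26, adjusted p = 0.132) but did on the other (-0.24, adjusted p = 0.0343).

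The starting cells differed in these same genes before induction. In TTF against MEF 8 of the 10 genes were called, 6 higher and 2 lower, where 66.6% of all genes were, 31.1% higher and 35.5% lower. Hk2 was higher in TTF by 1.37 ± 0.08 (adjusted p = 1.13e-06), Slc2a8 by 1.22 ± 0.10 (adjusted p = 1.29e-05) and Pfkfb3 by 1.02 ± 0.06 (adjusted p = 1.17e-06), and Ldhb was lower by -1.17 ± 0.06 (adjusted p = 7.92e-07). Slc2a3 was lower by -0.34 ± 0.11 (adjusted p = 0.0193), a call lost without MEF replicate 2 (adjusted p = 0.0904) and without TTF replicate 1 (adjusted p = 0.0866). After induction, in TTF-ieSC against MEF-ieSC, only Ldhb was called (0.59 ± 0.08, adjusted p = 0.00201), where 14.3% of all genes were, 7.53% higher and 6.76% lower. The other 9 differences were between -0.31 and 0.22. A fit on these groups alone did not call Ldhb (adjusted p = 0.0698). With 1 MEF-ieSC array, the comparison takes its spread from the other groups. These contrasts share arrays with the test of the difference between the inductions. By arithmetic, that difference is the contrast after induction minus the contrast before it. Agreement among the tests is therefore no separate evidence.

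Against immature Sertoli cells the induced cells differed in most of the 10 genes. In TTF-ieSC all 10 were called, 7 higher and 3 lower (76.8% of all genes called, 37.8% higher and 39.0% lower), and in MEF-ieSC 8 were, 5 higher and 3 lower (70.6% of all genes called, 34.4% higher and 36.2% lower). Higher in both were Slc2a3, Slc2a8, Slc16a1, Slc16a3 and Fbp1, and lower in both were Hk2, Pfkfb3 and Ldha, the last in TTF-ieSC not without TTF-ieSC replicate 1 (-0.18, adjusted p = 0.0715). The other Pfkfb3 feature, near the array median, did not pass in TTF-ieSC (-0.02, adjusted p = 0.81) or in MEF-ieSC (-0.06, adjusted p = 0.62). Fbp1 is in these counts only because the filter let it in through other groups, and its signals here were all under the array median. With it included, the median of the 10 differences was 0.56 in TTF-ieSC and 0.34 in MEF-ieSC, against 0.01 and -0.01 over all genes tested.

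Ldhb and Hk2 were higher, and Slc2a1, Slc2a8 and Pfkfb3 lower, in both Sertoli cultures than in the fibroblast set beside each. For Slc2a8 and Pfkfb3 this depends on the fibroblast chosen. The mature group means, 13.54 for Slc2a8 and 12.81 for Pfkfb3, lay above those of MEF, 13.36 and 12.11, a comparison that was not tested. In immature Sertoli cells against MEF 7 of the 10 genes were called, 2 higher and 5 lower (71.8% of all genes called, 36.2% higher and 35.6% lower). Hk2 was higher by 2.24 ± 0.08 (adjusted p = 4.30e-08) and Ldhb by 1.42 ± 0.06 (adjusted p = 1.82e-07), while Slc16a3 was lower by -2.21 ± 0.08 (adjusted p = 6.25e-08). Slc2a1 (-0.79), Slc2a8 (-0.61) and Pfkfb3 (-0.41) were lower there too, though the other, dim Pfkfb3 feature did not pass (0.01, adjusted p = 0.92). In mature Sertoli cells against TTF 7 were called, 4 higher and 3 lower (77.1% of all genes called, 36.6% higher and 40.4% lower), with Fbp1 among those higher because the filter let it in for its level in mature cells. Ldhb was higher by 3.25 ± 0.06 (adjusted p = 1.02e-09) and Slc2a3 by 2.06 ± 0.11 (adjusted p = 2.66e-07), and Slc2a8 was lower by -1.04 ± 0.10 (adjusted p = 2.31e-05). Slc2a1 (-0.65) and Pfkfb3 (-0.32) were lower as well, the latter not with the mean of its features (-0.11, adjusted p = 0.0959). Hk2 was higher by 0.29 ± 0.08 (adjusted p = 0.00986), a call lost without TTF replicate 2 (0.23, adjusted p = 0.0660). The carriers did not pass in the fit of genes, with Slc16a3 at -0.17 (adjusted p = 0.104) and Slc16a1 at 0.12 (adjusted p = 0.158). The other Slc16a3 feature, of similar brightness, did pass in the fit of all features (-0.30 ± 0.05, adjusted p = 0.000732).

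Mature Sertoli cultures had higher levels than immature ones for 9 of the 10 genes and lower for Hk2 alone, and all 10 were called, Fbp1 through its level in mature cells (68.5% of all genes called, 28.9% higher and 39.6% lower). The median of the 10 differences, with Fbp1 included, was 0.72 against -0.09 over all genes tested. Among the higher genes were Slc16a3 (2.49 ± 0.08, adjusted p = 4.52e-08), Slc2a3 (1.94 ± 0.11, adjusted p = 7.26e-07) and Pfkfb3 (1.11 ± 0.06, adjusted p = 7.23e-07). Ldha was higher by 0.36 on its brightest feature (adjusted p = 0.000958) and by 0.93 and 1.30 on the others (adjusted p = 2.63e-06 and 1.57e-07). Hk2 was lower by -0.58 ± 0.08 (adjusted p = 0.000259). Time in culture differed between these groups along with age, and the germ cell genes named above differed with them. In immature Sertoli cells against the gonad 9 genes were called, 3 higher and 6 lower (70.5% of all genes called, 32.6% higher and 37.9% lower), and Slc2a1 was not (0.07, adjusted p = 0.435). Fbp1 was among those lower because the filter let it in for its level in the gonad.

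The other genes of these pathways were counted over lists that had not been chosen for how they moved here, though earlier results of these data were known. Of 15 glycolysis enzymes tested, 4 rose and 7 fell in TTF-ieSC against TTF and 5 rose and 4 fell in MEF-ieSC against MEF, with medians of -0.16 and -0.06. Over all genes tested, the shares to set beside this and the following counts are 39.5% higher and 35.2% lower from TTF, with a median of 0.06, and 34.3% higher and 33.6% lower from MEF, with a median of 0.01. Aldoc, the aldolase best known from brain, rose by 3.58 ± 0.11 and 5.11 ± 0.13 (adjusted p = 6.89e-09 and 5.09e-09) and Eno3, the muscle enolase, by 3.28 ± 0.09 and 2.47 ± 0.11 (adjusted p = 4.15e-09 and 1.65e-07). Eno2, the neuronal enolase, fell by 1.55 ± 0.07 and 1.68 ± 0.08 (adjusted p = 8.02e-08 and 2.84e-07). In immature Sertoli cells against MEF, 14 of the 15 enzymes were lower and 0 higher, with a median of -0.77 (0 over all genes, of which 35.6% were called lower and 36.2% higher). In mature against immature Sertoli cells 14 were higher and 1 lower, with a median of 0.69 (-0.09 over all genes, of which 28.9% were called higher and 39.6% lower).

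Among other hexokinases Hkdc1, which was dim in fibroblasts (7.57 in TTF and 6.42 in MEF), reached 11.03 in TTF-ieSC and 11.89 in MEF-ieSC. Its rise was 3.46 ± 0.11 and 5.47 ± 0.13 (adjusted p = 8.87e-09 and 3.47e-09). Hk1, the constitutive hexokinase, was singled out after its values were seen: its group means spanned only 17.11 to 17.38. Of 8 other hexose transporters tested, 1 rose and 5 fell in each induction. Slc2a10 fell by 3.34 ± 0.08 and 3.83 ± 0.10 (adjusted p = 2.10e-09 and 6.16e-09). Slc2a13, a transporter of myo-inositol, fell by 2.60 ± 0.07 and 2.51 ± 0.08 (adjusted p = 2.88e-09 and 2.38e-08).

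Of 6 other lactate genes tested, 2 rose and 2 fell in each induction. Emb, which encodes the carrier chaperone embigin, read 14.69 in TTF, 12.43 in MEF, 5.87 in TTF-ieSC and 5.19 in MEF-ieSC (group means). It fell by 8.82 ± 0.29 and 7.24 ± 0.36 (adjusted p = 1.14e-08 and 2.59e-07). Slc16a8, the carrier MCT3, rose by 2.32 ± 0.11 and 3.50 ± 0.14 (adjusted p = 1.49e-07 and 6.22e-08), and Ldhd, the D-lactate dehydrogenase of mitochondria, by 1.81 ± 0.07 and 3.53 ± 0.09 (adjusted p = 4.43e-08 and 4.34e-09). Bsg, which encodes basigin, the chaperone of MCT1 and MCT4, was -1.47 ± 0.06 and -0.62 ± 0.07 from the fibroblasts (adjusted p = 2.95e-08 and 5.52e-05). Bsg was named after its values were seen, as the partner of Slc16a3. Ldhc, the lactate dehydrogenase of male germ cells, was 15.90 in mature Sertoli cultures and 8.97 in immature ones, a difference of 6.93 ± 0.24 (adjusted p = 5.65e-08).

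At the entry of pyruvate to mitochondria 7 of 13 genes rose and 2 fell from TTF, and 6 rose and 3 fell from MEF. Mpc1, a subunit of the pyruvate carrier, rose by 1.90 ± 0.08 and 2.50 ± 0.10 (adjusted p = 6.00e-08 and 6.20e-08). Pdk4, a kinase that switches pyruvate dehydrogenase off, rose by 1.61 ± 0.10 and 2.47 ± 0.12 (adjusted p = 5.67e-07 and 2.05e-07). Of 10 genes of fructose bisphosphate control and gluconeogenesis, 3 rose and 3 fell from TTF, and 3 rose and 2 fell from MEF. Of 16 hypoxia response genes outside glycolysis, 5 rose and 10 fell from TTF (median -0.76) and 7 rose and 7 fell from MEF (median 0.15). The peptide hormone gene Adm fell by 7.48 ± 0.08 and 5.42 ± 0.09 (adjusted p = 1.73e-11 and 5.21e-10), while Epas1, which encodes HIF-2α, rose by 3.31 ± 0.09 and 4.55 ± 0.11 (adjusted p = 3.05e-09 and 2.93e-09). The list therefore did not move one way. In TTF against MEF 12 of its genes were higher and 0 lower (31.1% and 35.5% over all genes), with a median of 1.06 against -0.03.

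**Figure D5:**
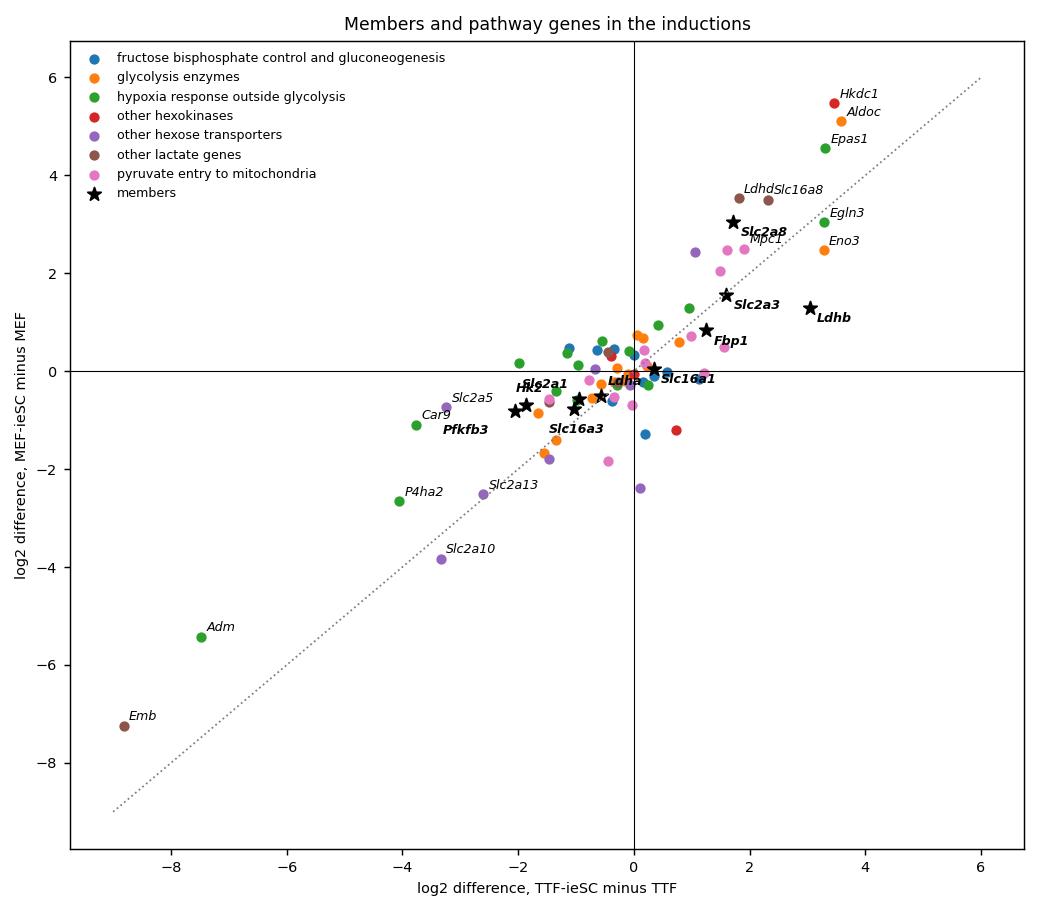
Log2 difference in TTF-ieSC against TTF (x axis) and in MEF-ieSC against MEF (y axis) of the 10 genes (stars) and of the pathway genes tested (dots, coloured by list); the dotted line marks equal differences. Emb and Adm lie farthest down and Hkdc1, Aldoc and Epas1 farthest up, well outside the range of the 10 genes.

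Likeness of pattern was measured by the Pearson correlation over the 7 group means, a description in which groups and arrays are shared by all genes. The genes named as most like a member were picked for the highest values among the genes tested. Their correlations are therefore high by choice, and shared control was not tested. The genes most like Slc2a8 were Lrpap1 (0.999) and Rgr (0.994), those most like Ldhb were Tlcd3b (0.988) and Tspan18 (0.984), and those most like Hk2 were Cdc42 (0.992) and Tmem59l (0.990). For Pfkfb3 they were Fchsd2 (0.997) and Gnpda1 (0.985), for Slc16a3 Kctd17 (0.988) and Xaf1 (0.978) and for Slc2a3 Pih1d2 (0.966) and Zfp536 (0.964). Among the 10 genes themselves the correlations ran from -0.86 between Slc2a1 and Ldhb to 0.87 between Slc2a1 and Slc16a3. Ldha followed Hk2 at 0.75 and Slc2a1 at 0.73, and was at -0.52 with Ldhb.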

How the data were processed

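RNA from 13 samples in 7 groups was hybridised to 1-colour Agilent arrays with Cy3, 1 sample per array. The deposited values are log2 signals of 62976 features, with the same distribution on every array, and per the submitters' processing notes used limma. The sources used here do not give background correction, filters or build. Precision is limited by how few arrays each group has.

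The platform annotation named 31465 features, and symbols were updated through RefSeq (GRCm38.p6; 29050 by accession, 2061 by symbol, 349 by an older name, 5 kept), giving 20738 genes. No member symbol changed. A gene was represented by its brightest feature over the 13 arrays. The 16658 genes with 2 or more arrays over the array median entered 1 limma fit of all groups (version 3.58.1, R 4.3.3, lmFit, then eBayes), whose degrees of freedom were 6 residual and 2.18 prior. MEF-ieSC, with 1 array, borrows its spread from the remaining groups. The 11 comparisons were two-sided, with Benjamini-Hochberg adjustment over all genes tested and calls at an adjusted p under 0.05. The labels do not say that replicates were separate cultures or animals, so p-values measure only the spread among the arrays at hand, perhaps a technical one. A fit of all 25285 features above the same filter gave the values per feature. The fit was tested on simulated data.

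The alternatives were another quantile normalization, every feature on its own, the mean of a gene's features, no filter or one set at the 75th percentile, a variance trend with robust fitting, array weights, fits on the compared groups alone, and leaving out each replicate array. The members and gene lists were chosen with earlier results of these data known. Named were all members with every feature, up to 3 called genes per pathway list and comparison by size, and the 2 genes most like each member whose group means span 2 log2 units or more, leaving out clone and predicted names.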

Additional observations from a re-analysis of the deposited data

Results flagged for a closer look

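The change on induction differed between the starting cells for 5 genes by the test of the difference itself, TTF-ieSC minus TTF less MEF-ieSC minus MEF (limma, adjusted over all genes tested). The log2 differences were 1.75 for Ldhb (adjusted p = 2.70e-06), -1.33 for Slc2a8 (adjusted p = 0.000228), -1.24 for Pfkfb3 (adjusted p = 1.34e-05), -1.18 for Hk2 (adjusted p = 9.94e-05) and -0.37 for Slc2a1 (adjusted p = 0.0376). At 54.1% of all genes called, such a difference was common on these arrays. The MEF-ieSC side rests on 1 array. No group had 4 or more arrays, so single arrays were not tested as outliers.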

How the results depend on the processing

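Each of the 10 genes in each of the 11 comparisons was recomputed under every alternative that gave a value, 2189 values in all. Of these, 2161 stayed on the same side of the threshold, and among them every called value kept its direction. Changes of sign between values called in neither fit were not counted. Another 15 lost the call and 12 gained it. In 1 case the sign changed along with a call. This was Ldha in mature Sertoli cells against TTF, 0.03 on the brightest feature and -0.20 (adjusted p = 0.00204) as the mean of its features. Leaving out 1 array accounted for 16 of the 28 changes. Taking every feature on its own used the brightest feature of each member here, so its estimates repeat the main ones. Quantile normalization acted on values that already had the same distribution on every array. All 110 values of either setting stayed the same, but by design these settings could show little change. The least stable call was that of Slc2a1 in the difference between the inductions, lost with no filter (adjusted p = 0.0555), in a fit on the 4 groups alone (adjusted p = 0.0703) and without MEF replicate 1, TTF replicate 2 or TTF-ieSC replicate 1 (adjusted p = 0.0934, 0.0915 and 0.103). The cause was not tested. Slc16a1 is too dim for the filter at the 75th percentile and has no value there.

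The number of members called moved by over 1.5 times only in TTF-ieSC against MEF-ieSC, from 1 to 2 with the mean of a gene's features and to 0 in a fit on these groups alone, which had 5 members at an unadjusted p under 0.05. There the count over all genes went from 2381 to 6 (limma, 5000 at an unadjusted p under 0.05), in a fit with fewer arrays. With every feature on its own, where 25285 features rather than 16658 genes were tested, the count over the array rose from 12444 to 18810 in TTF-ieSC against TTF, from 11318 to 17039 in MEF-ieSC against MEF, from 12788 to 19290 in TTF-ieSC against immature Sertoli cells, from 11763 to 17764 in MEF-ieSC against them, from 12836 to 19377 in mature Sertoli cells against TTF and from 11407 to 17274 in mature against immature Sertoli cells. No paired analysis was possible because the labels give no replicate numbers shared between groups. Signal near the array median limits Slc16a1 and, outside gonad and mature Sertoli cells, Fbp1. The brightest Ldha feature lies close to the array maximum, and whether this made its changes smaller was not tested.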
